A study of Homo sapiens with 12 samples.

Results

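Hyaluronan synthesis and turnover is described here through 6 genes in A549 cells, a line established from a human lung carcinoma. They are HAS2 and HAS3 (hyaluronan synthases), UGDH (UDP-glucose dehydrogenase), CD44 (the main cell surface receptor of hyaluronan) and HYAL2 and HYAL3 (hyaluronidase family). They were picked by symbol from the 58676 genes of the deposited table and make up 6 of them. The set was chosen by the bortezomib response, because HAS3 had the largest fall with the drug, and no line was named in that choice. The response of the members to the drug is therefore given in all 3 lines as a description with no test, while the knockout lines are tested against the control line. The comparisons of HAS3 between lines share libraries with that choice under both treatments, and nothing is read from their p-values. In the control line HAS3 ranked first of 12194 tested genes by its fitted log2 change of -3.47, and the next gene, CAV1, stood at -2.75.

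RNA was sequenced from 3 lines: a control line with the genotype label Control1, and the NFE2L1 knockout lines KO1 and KO2. Each received DMSO vehicle or 200 nM bortezomib, a proteasome inhibitor, for 4 h, which made 6 groups of 2 libraries. NFE2L1 encodes a transcription factor that induces genes of the proteasome after its inhibition. The labels do not say whether a line is a clone, or whether the libraries of a group came from separate cultures, so p-values measure the spread between these libraries, which may be technical.

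Hyaluronan is a long unsulfated polysaccharide of alternating glucuronic acid and N-acetylglucosamine. Synthases in the plasma membrane build it from the matching UDP-sugars and push the chain out of the cell, where it forms a coat and a part of the matrix. Cells bind it through CD44 and take it up, and hyaluronidases and lysosomal exoglycosidases cut it down. In lung and lung tumors it is known as a component of the matrix around epithelial cells.

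The 12 libraries held 13211608 to 23819258 reads assigned to genes. Values are FPKM, a level scaled to gene length and to the reads assigned in the library. Libraries whose titles end in R2 stood apart from the rest: mitochondrial genes took 12.3% to 19.3% of reads in those 6 libraries and 5.44% to 6.80% in the 6 titled R1 or without a suffix (both control groups pair an unnumbered library with an R2 library). Tests come from a limma fit without a replicate term and from one with the title suffix as a replicate block, and each sentence names the fit. NFE2L1 stood at 9.82% to 25.6% of the control level in the 4 vehicle pairs and at 18.9% to 33.7% in the 4 bortezomib pairs. Of the 6 epithelial markers, the keratin genes KRT7, KRT8 and KRT18 were at 112 to 755 FPKM, KRT19 at 8.12 to 153, CDH1 at 1.42 to 9.53 and EPCAM at 1.25 to 10.6, while the 2 endothelial and 3 leukocyte markers were at most 0.060. The 4 alveolar type II markers were at most 0.130, so the differentiated marker genes of the lung cell type were near 0. Of the fibroblast markers, COL1A1 was at 1.42 to 23.3 FPKM, with COL1A2 at most 0.408 and PDGFRB at most 0.134.

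All 6 genes passed the filter of a mean FPKM of at least 1. On this length-scaled level CD44 (mean 90.5 FPKM over the 12 libraries) and UGDH (80.9) were the most abundant, followed by HAS3 (13.5), HYAL2 (5.06), HYAL3 (2.31) and HAS2 (2.005). The remaining synthase gene, HAS1, reached 0.498 FPKM at most, and HYAL1 reached 1.38.

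The promoters of HAS3 and HYAL2 are shown because these genes had the largest proportional losses beside HAS2 and the most similar profiles among the 6 (Pearson's r of 0.94 across the 12 libraries, which share the drug and the suffix difference). Each stretch is the 250 bases before a RefSeq start on GRCh38.p14, read 5′ to 3′ on the gene's strand, with matches to the searched motifs in capitals. Where a gene had several starts, only the window at the highest genomic position was kept, and the motif results of the members cover that window alone. That is the most downstream start on the plus strand and the most upstream on the minus strand. HAS3 lies at chr16:69107290-69107539 on the plus strand and HYAL2 at chr3:50322746-50322995 on the minus strand.

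HAS3: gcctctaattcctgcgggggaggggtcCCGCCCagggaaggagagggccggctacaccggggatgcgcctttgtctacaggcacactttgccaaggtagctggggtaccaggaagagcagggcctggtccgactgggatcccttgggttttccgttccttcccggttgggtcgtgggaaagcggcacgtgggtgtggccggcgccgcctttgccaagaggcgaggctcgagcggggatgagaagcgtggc
HYAL2: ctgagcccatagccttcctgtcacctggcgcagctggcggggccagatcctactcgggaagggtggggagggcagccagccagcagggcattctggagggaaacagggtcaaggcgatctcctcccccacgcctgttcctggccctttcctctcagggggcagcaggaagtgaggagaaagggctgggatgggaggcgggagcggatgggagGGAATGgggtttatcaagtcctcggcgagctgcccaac

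The capitals in HAS3 mark a GC box on the reverse strand (GGGCGG, bases -223 to -218 from the start), a motif found in 42.6% of all 35116 RefSeq promoter windows of that length. The capitals in HYAL2 mark a TEAD site (GGAATG, bases -38 to -33), found in 11.9% of windows. Both strands were searched for these motifs and for the antioxidant response core TGACNNNGC, the AP-1 site TGANTCA, the cAMP response element TGACGTCA, the heat shock element GAANNTTC and the TATA box TATAAA. None of these other 5 was in either stretch. Among the 5 members with a window used here, CD44 held the antioxidant response core (10.9% of all windows) with 2 GC boxes, UGDH held a TEAD site and 2 GC boxes, and HYAL3 held 2 GC boxes. The window of HAS3 lies inside the deposited gene, which spans 69105564 to 69118719. Those of CD44 and UGDH also lie wholly inside their deposited genes, and those of HYAL2 and HYAL3 partly. Each window thus belongs to a start downstream of the first one in the table. The TEAD matches of HYAL2 and UGDH and the antioxidant match of CD44 lie inside the deposited gene. A match is a description of letters and not of binding.

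HAS3 (ENSG00000103044, chromosome 16) encodes the synthase known for making shorter chains at a high rate. In vehicle its FPKM was 12.4 and 32.1 in the control line, 25.2 and 40.2 in KO1, and 17.5 and 23.7 in KO2, with the unnumbered or R1 library first and R2 second. With bortezomib it was 0.780 and 1.03 in the control line, 2.12 and 3.32 in KO1, and 1.66 and 2.40 in KO2. Every bortezomib library lay below every vehicle library, and the lowest held 58 HAS3 reads. As a share of the vehicle library with the same suffix, the level left was 6.29% and 3.22% in the control line, 8.42% and 8.24% in KO1, and 9.52% and 10.2% in KO2. From bulk RNA, fewer cells with the transcript and less of it per cell cannot be told apart.

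On the log2 scale of FPKM + 1, HAS3 with the drug differed from vehicle by -3.16 in KO1, -2.83 in KO2 and -3.47 in control cells (SE 0.44 each, and 0.23 in KO1 and KO2 with the block). HAS3 had the lowest log2 change of the 12194 genes in each of the 3 lines, which is what the set was chosen on.

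**Figure D1:**
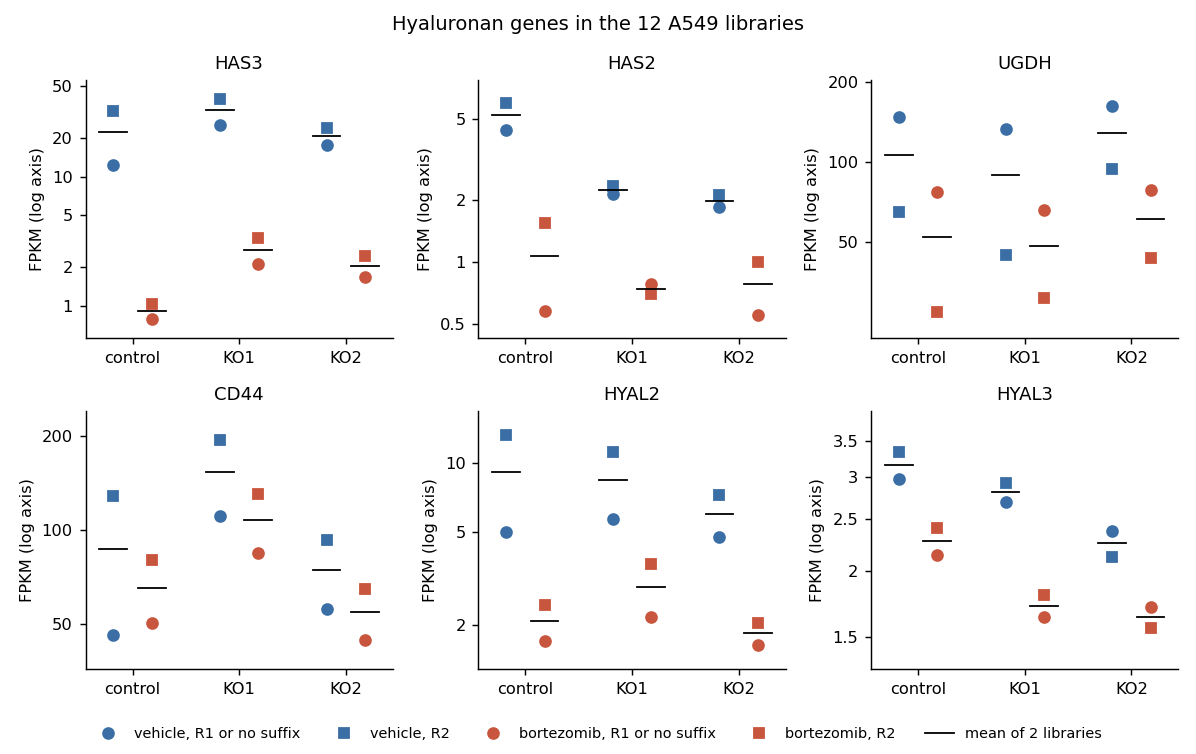
FPKM of the 6 genes in the 12 libraries, on log axes, by line; blue marks vehicle and red bortezomib, squares mark R2 libraries, circles R1 or unnumbered ones, and black lines the mean of 2 libraries. HAS3 lies between 12.4 and 40.2 in vehicle and between 0.780 and 3.32 with bortezomib, while the R2 squares of UGDH lie below the circles in every group and those of CD44 above them.

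The group means of HAS3 ran from 32.7 ± 10.7 FPKM in KO1 vehicle (SD, n = 2, as for all group means below) through 22.3 ± 14.0 in control vehicle and 20.6 ± 4.39 in KO2 vehicle to 2.72 ± 0.847 in KO1, 2.03 ± 0.526 in KO2 and 0.907 ± 0.180 in the control line with bortezomib. In vehicle, each knockout line overlapped the control line, while KO1 lay above KO2, with a lowest library of 25.2 against a highest of 23.7. KO1 and KO2 overlapped with bortezomib. The control line with bortezomib lay below both knockout lines, its highest library at 1.03 against a lowest of 1.66. In the R2 and the R1 or unnumbered comparison, KO1 with bortezomib was at 321% and 272% of the control line and KO2 at 233% and 213%. Neither difference passed in limma: the log2 difference was 0.95 in KO1 (SE 0.44, adjusted p = 0.924, and 0.1 with the block) and 0.66 in KO2 (SE 0.44, adjusted p = 1, and 0.313 with the block). The KO1 difference passed in some limma fits with a block: at 0.0241 with the unnumbered libraries merged into R1, 0.0437 with libraries scaled to a common sum and 0.00299 with voom on reads. With 1 library left out, the blocked KO1 log2 difference ran from -0.026 to 1.09. The KO2 difference passed in the blocked voom fit (0.0417). HAS3 was chosen by its fall with the drug, in which these bortezomib libraries take part. Nothing is therefore read from the HAS3 p-values of this comparison.

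HAS2 (ENSG00000170961, chromosome 8) encodes the synthase linked to long chains and to embryonic development. Its vehicle FPKM was 4.42 and 5.998 in the control line, 2.15 and 2.34 in KO1, and 1.86 and 2.13 in KO2. With bortezomib it was 0.577 and 1.56, 0.777 and 0.695, and 0.548 and 1.005, for the lines as listed. All bortezomib libraries lay below all vehicle libraries, and the 3 bortezomib groups overlapped. HAS2 rested on few reads, from 34 to 470 in a library.

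With bortezomib HAS2 was left at 13.1% to 47.1% of vehicle over the 6 pairs. The log2 change was -0.90 in KO1 and -0.76 in KO2 (SE 0.29 each, and 0.17 with the block).

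HAS2 was also lower in the untreated knockout lines. In vehicle, KO1 stood at 48.6% and 39.0% and KO2 at 42.1% and 35.5% of the control library of the same suffix (R1 is set against the unnumbered control library throughout). The group means were 5.21 ± 1.12 FPKM for control, 2.24 ± 0.135 for KO1 and 1.996 ± 0.191 for KO2, and these 3 groups did not overlap. The log2 difference was -0.93 in KO1 (SE 0.29, limma adjusted p = 0.582) and -1.04 in KO2 (SE 0.29, adjusted p = 0.43). With the block HAS2 was lower in both, by log2 differences of -1.13 (SE 0.20, adjusted p = 0.0129) and -1.24 (SE 0.20, adjusted p = 0.0087). These calls were lost without the R2 library of control vehicle (0.146 and 0.144), of KO1 vehicle (0.0848, KO1) or of KO2 vehicle (0.125, KO2). Both comparisons share the control libraries.

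In vehicle and without the block, limma called 0 of the 6 members between a knockout line and the control line, where 0.213% of all tested genes were called in KO1 and 0.23% in KO2. At an unadjusted p under 0.05, HAS2 passed in both without the block. With the block, CD44 in KO1 (limma unadjusted p = 0.00996) and HYAL3 in KO2 (0.0299) also passed at that threshold. With the block 1 of 6 was called in each line, HAS2, against 5.95% of all genes in KO1 (3.1% higher, 2.85% lower) and 4.91% in KO2 (2.67% higher, 2.25% lower). In that block R1 occurs in knockout libraries alone and the unnumbered level in control libraries alone, so the knockout comparisons are tied mainly through R2. HAS3 is among the 6 counted here. Its vehicle libraries also took part in the choice of the set, so nothing is read from its p-values.

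With bortezomib, 0 of 6 members were called between a knockout line and the control line, with or without the block. The shares of all genes called were 0.107% in KO1 and 0.0656% in KO2 without the block, and with it 7.54% in KO1 (3.62% higher, 3.92% lower) and 4.81% in KO2 (2.51% higher, 2.3% lower). At an unadjusted p under 0.05 with the block, HAS3 and CD44 passed in KO1 and HYAL3 in KO2, and without the block none did. In the blocked voom fit HAS3 was called in both lines. As stated above, nothing is read from the HAS3 p-values of this comparison. HAS2 with bortezomib was at 135% (R1) and 44.6% (R2) of control in KO1 and at 95.1% and 64.5% in KO2. As a description with no test, its log2 response to the drug was 0.71 less negative in KO1 than in the control line and 0.85 less negative in KO2 (SE 0.24 each with the block, 0.41 without), against a control response of -1.62. For HAS3 the same differences were 0.31 and 0.64 (SE 0.32 with the block, 0.62 without). In control cells with bortezomib HAS3 was at 0.780 and 1.03 FPKM and HAS2 at 0.577 and 1.56. At such levels the added 1 FPKM shrinks the log2 change, so these differences do not rank HAS2 against HAS3.

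The balance of the synthases shifted with these levels. HAS3 made up 71.8% and 83.2% of the summed FPKM of HAS1, HAS2 and HAS3 in control vehicle, 92.1% and 94.3% in KO1 and 88.2% and 90.9% in KO2. With bortezomib the shares were 45.7% and 33.5% in the control line, 72.3% and 80.3% in KO1, and 71.5% and 61.8% in KO2. Each bortezomib share lay below the vehicle share of its own line, and the knockout lines lay above the control line under both treatments. The summed synthase FPKM was 17.3 to 42.7 in vehicle libraries and 1.71 to 4.13 with bortezomib. These shares are built from values used to choose the set and are given as a description.

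**Figure D2:**
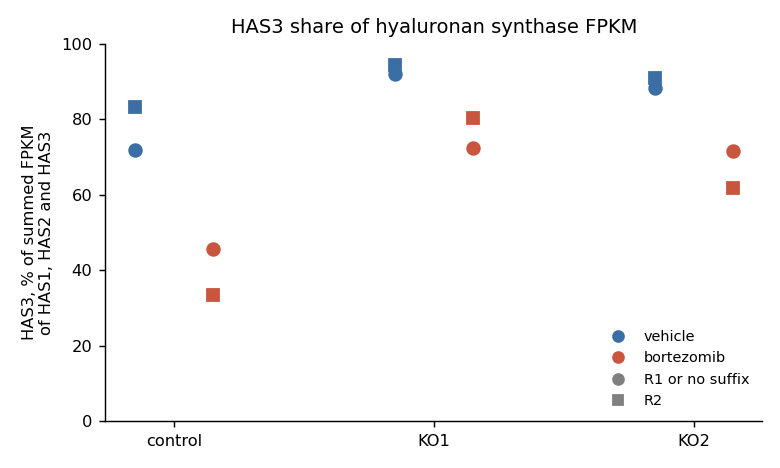
HAS3 as a percentage of the summed FPKM of HAS1, HAS2 and HAS3 in each library (y axis) by line (x axis); blue marks vehicle, red bortezomib, squares R2 and circles R1 or unnumbered libraries. The control line with bortezomib, at 45.7% and 33.5%, lies below all other groups.

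UGDH (ENSG00000109814, chromosome 4, 39498755 to 39528311, minus strand) encodes the enzyme that oxidizes UDP-glucose to UDP-glucuronic acid, a substrate of all hyaluronan synthases. In vehicle it was at 148 and 65.2 FPKM in the control line, 134 and 44.9 in KO1, and 162 and 94.1 in KO2. With bortezomib it was at 77.5 and 27.5, 66.0 and 31.1, and 78.3 and 43.8. Libraries of the 2 treatments overlapped when all were pooled, and within each suffix the bortezomib library was lower in 6 of 6 pairs, at 42.2% to 69.2% of vehicle. The R2 library was at 0.336 to 0.581 times its partner in all 6 groups.

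The log2 change of UGDH with bortezomib was -0.76 in KO1 and -1.06 in KO2 (SE 0.74 each, and 0.20 with the block). Group means in vehicle were 106 ± 58.4 FPKM for control, 89.2 ± 62.7 for KO1 and 128 ± 47.9 for KO2, and with bortezomib 52.5 ± 35.4, 48.5 ± 24.7 and 61.0 ± 24.4. Sorted by mean, neighbouring groups all overlapped.

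CD44 (ENSG00000026508, chromosome 11, 35138870 to 35232402, plus strand) was at 46.3 and 128 FPKM in control vehicle, 111 and 195 in KO1 vehicle, and 56.0 and 93.3 in KO2 vehicle. With bortezomib it was at 50.5 and 80.3, 84.5 and 131, and 44.4 and 64.8. Levels of the 2 treatments overlapped in each line, and R2 was 1.46 to 2.77 times its partner in all 6 groups. The bortezomib library was lower in 5 of 6 pairs, at 62.5% to 79.3% of vehicle, and at 109% in the unnumbered control pair.

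The log2 change of CD44 with bortezomib was -0.48 in KO1 and -0.42 in KO2 (SE 0.59 each, and 0.19 with the block). In vehicle, CD44 in KO1 was at 240% and 152% of the control line, a log2 difference of 0.92 (SE 0.59, adjusted p = 1). With the block that difference was 0.73 (SE 0.23, adjusted p = 0.0988). It passed in 3 other blocked fits: with the unnumbered libraries merged into R1 (0.0252), after quantile normalization (0.0254) and with voom (0.0271). Group means were 87.4 ± 58.1 FPKM in control vehicle, 153 ± 59.6 in KO1 vehicle and 74.7 ± 26.3 in KO2 vehicle, and with bortezomib 65.4 ± 21.0, 108 ± 32.7 and 54.6 ± 14.4. All neighbouring groups in the order of these means overlapped.

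HYAL2 (ENSG00000068001, chromosome 3, 50317790 to 50322906, minus strand) encodes a membrane-anchored hyaluronidase that cuts long chains at the cell surface. Its vehicle FPKM was 5.04 and 13.2 in the control line, 5.69 and 11.1 in KO1, and 4.77 and 7.23 in KO2. With bortezomib it was 1.70 and 2.43, 2.16 and 3.67, and 1.64 and 2.04. All bortezomib libraries lay below all vehicle libraries, with 18.5% to 38.0% of the paired vehicle level left. Group means were 9.10 ± 5.73 FPKM for control, 8.41 ± 3.85 for KO1 and 6.0 ± 1.74 for KO2 in vehicle, and 2.07 ± 0.513, 2.92 ± 1.07 and 1.84 ± 0.284 with the drug. Neighbouring groups overlapped within each treatment.

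The log2 change of HYAL2 was -1.23 in KO1 and -1.28 in KO2 (SE 0.45 each, and 0.22 with the block). TUSC2, a gene on the same strand, overlaps 56.3% of the genomic span of HYAL2. Reads in the shared stretch may have gone to either gene or been left out, since the counting rules are not given. TUSC2 was at 58.8% to 143% of vehicle with bortezomib.

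HYAL3 (ENSG00000186792, chromosome 3, 50292831 to 50299468, minus strand) is a hyaluronidase family gene beside HYAL2, with 44 to 144 reads in a library. Its vehicle FPKM was 2.98 and 3.35 in the control line, 2.70 and 2.92 in KO1, and 2.38 and 2.12 in KO2. With bortezomib it was 2.14 and 2.41, 1.64 and 1.80, and 1.71 and 1.56. Within each line every bortezomib library lay below every vehicle library, at 60.8% to 73.5% of the paired level. R2 was 0.893 to 1.13 times its partner, the narrowest suffix gap of the 6 genes. Group means were 3.16 ± 0.260 FPKM for control, 2.81 ± 0.157 for KO1 and 2.25 ± 0.180 for KO2 in vehicle, and 2.27 ± 0.191, 1.72 ± 0.113 and 1.64 ± 0.106 with the drug. Control with bortezomib overlapped KO2 vehicle, KO1 overlapped KO2 with bortezomib, and the other neighbours, sorted by mean, did not overlap.

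The log2 change of HYAL3 was -0.49 in KO1 and -0.30 in KO2 (SE 0.21 each, and 0.14 with the block). Against the control line, HYAL3 was lower in all 4 pairs in vehicle, at 63.5% to 90.6%, and in all 4 with bortezomib, at 64.9% to 80.1%, and none of these comparisons passed. NAT6, on the same strand, overlaps 45.5% of the genomic span of HYAL3 and was at 62.0% to 146% of vehicle with the drug.

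**Figure D3:**
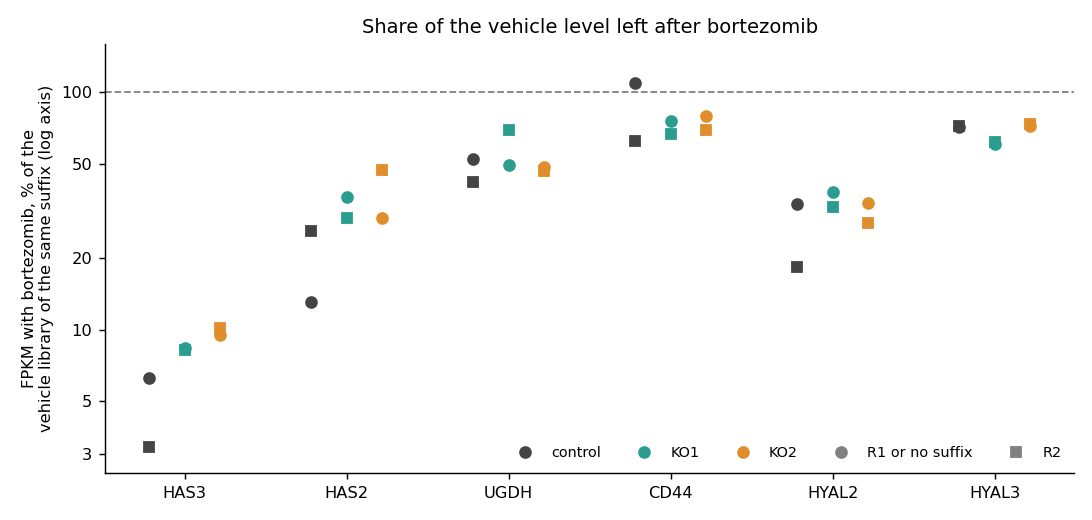
FPKM with bortezomib as a percentage of the vehicle library of the same line and suffix (log axis), for each gene and line; squares are R2, circles R1 or unnumbered pairs, and the dashed line is 100%. HAS3 lies at 3.22% to 10.2%, HYAL2 at 18.5% to 38.0% and HYAL3 at 60.8% to 73.5%, and 1 CD44 pair lies above 100%.

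Because the set was chosen on the response to bortezomib, nothing is read from how many members passed a threshold for it. For the record, limma called 1 of 6 in KO1 without the block, where 0.238% of all tested genes were called, and 5 of 6 with it, all lower, where 27.7% were called (13.9% higher, 13.8% lower). In KO2 it called 1 of 6 against 0.32% without the block, and 4 of 6, all lower, against 27% with it (12.7% higher, 14.4% lower). The median log2 change of the 6 genes was -0.83 in KO1 and -0.91 in KO2, and that of all tested genes was 0.00 and -0.02. In the control line the log2 changes were -3.47 for HAS3, -1.62 for HAS2, -1.60 for HYAL2, -1.07 for UGDH, -0.35 for HYAL3 and -0.27 for CD44.

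The other genes of the pathway were read from lists of hyaluronan genes, of which 26 that are no members passed the filter. With the block 5 of the 26 rose with bortezomib in KO1, where 13.9% of all genes did, and 2 fell, where 13.8% did. In KO2, 5 rose against 12.7% of all genes and 5 fell against 14.4%. Without it, limma called 0 of the 26 in either line (2 and 3 at an unadjusted p under 0.05), as did voom without the block (3 and 4). Their median log2 change was -0.03 in KO1 and 0.03 in KO2, near that of all genes. Tests of single listed genes below are from the fit with the block unless the sentence says otherwise.

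Of the 11 tested genes that supply UDP-sugars, 4 rose in KO1 and 3 in KO2 with the block in limma, against the shares just given, and 0 and 2 of those that are no members fell. In the branch that makes UDP-N-acetylglucosamine, GNPNAT1 and NAGK did not pass in either line (adjusted p = 0.147 and 0.817 in KO1, and 0.331 and 0.972 in KO2). GFPT1, the rate-limiting enzyme of the hexosamine pathway, went from 11.8 and 7.93 FPKM to 32.6 and 20.3 in KO1 (R1 first). That was a log2 change of 1.32 (SE 0.16, limma adjusted p = 0.000677 with the block and 0.332 without it). In KO2 it went from 11.7 and 9.91 to 35.8 and 23.2, a log2 change of 1.34 (adjusted p = 0.000549 with the block and 0.319 without it). The GFPT1 ranges of the 2 treatments did not overlap in either line. In the control line it was at 16.1 and 10.3 in vehicle and 36.6 and 19.3 with bortezomib.

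GFPT2, its paralog, rose by log2 changes of 0.80 in KO1 and 1.06 in KO2 (adjusted p = 0.00603 and 0.00171 with the block). UAP1, which makes UDP-N-acetylglucosamine, rose by 0.93 and 0.84 (0.00543 and 0.00902). Of these, GFPT1 in both lines and GFPT2 in KO2 passed in 12 of 12 blocked leave-outs. GFPT2 in KO1 was lost without KO1 bortezomib R2 (0.0797), UAP1 in KO1 without KO1 bortezomib R1 (0.07), and UAP1 in KO2 without KO2 vehicle R1 (0.113) or KO2 bortezomib R2 (0.0631). Named after their values were seen, PGM3 rose in KO1 (0.41, adjusted p = 0.0378), and PGM1 (-0.75, 0.0189) and GPI (-0.69, 0.0362) fell in KO2. These 3 calls passed in 4, 9 and 7 of the 12 blocked leave-outs. That of PGM3 was lost without any library of either knockout line, and that of PGM1 without KO2 vehicle R1 or R2 or KO2 bortezomib R1. That of GPI was lost without those same 3 libraries or either KO1 bortezomib library.

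Among the 7 tested genes of breakdown, CEMIP, a hyaluronan-binding protein that takes part in depolymerization, rose in KO2 by a log2 change of 1.26 (SE 0.40, limma adjusted p = 0.0463 with the block). Its FPKM there was 0.737 and 2.63 in vehicle and 1.77 and 12.1 with bortezomib, so the ranges overlapped. GUSB, a lysosomal beta-glucuronidase, fell in KO2 (-0.51, adjusted p = 0.0228). GUSB was lost without any 1 of the 4 KO2 libraries (0.1 to 0.148). CEMIP was lost without KO2 vehicle R1 (0.136) or R2 (0.24), KO2 bortezomib R2 (0.334) or either KO1 bortezomib library (0.0571 and 0.0573).

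Of the 5 tested receptor and binding genes, HMMR, the hyaluronan-mediated motility receptor, which also acts at the mitotic spindle, fell with bortezomib. It went from 24.3 and 14.5 FPKM to 8.04 and 3.63 in KO1 (log2 change -1.61, SE 0.17, limma adjusted p = 0.000388 with the block and 0.209 without it). In KO2 it went from 19.999 and 11.6 to 4.45 and 3.24 (-1.76, adjusted p = 0.000236 with the block and 0.146 without it). Both blocked calls passed in 12 of 12 blocked leave-outs.

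Among the 7 linkers and sheddases of CD44, the sheddase gene ADAM10 fell (-0.69 in KO1 and -0.75 in KO2, limma adjusted p = 0.00736 and 0.0054 with the block). ADAM17, another sheddase, rose (0.45 and 0.50, adjusted p = 0.0393 and 0.0272). The ADAM10 call was lost without KO1 bortezomib R2 in KO1 (0.092) and without KO2 vehicle R2 (0.0743) or KO2 bortezomib R2 (0.0545) in KO2. That of ADAM17 was kept in 4 of 12 leave-outs in KO1 and 7 of 12 in KO2, with adjusted p up to 0.284 and 0.23. In KO1 it was lost without any library of either knockout line, and in KO2 without any KO2 library or KO1 bortezomib R1. The ERM linker genes EZR, RDX and MSN did not pass in either line.

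**Figure D4:**
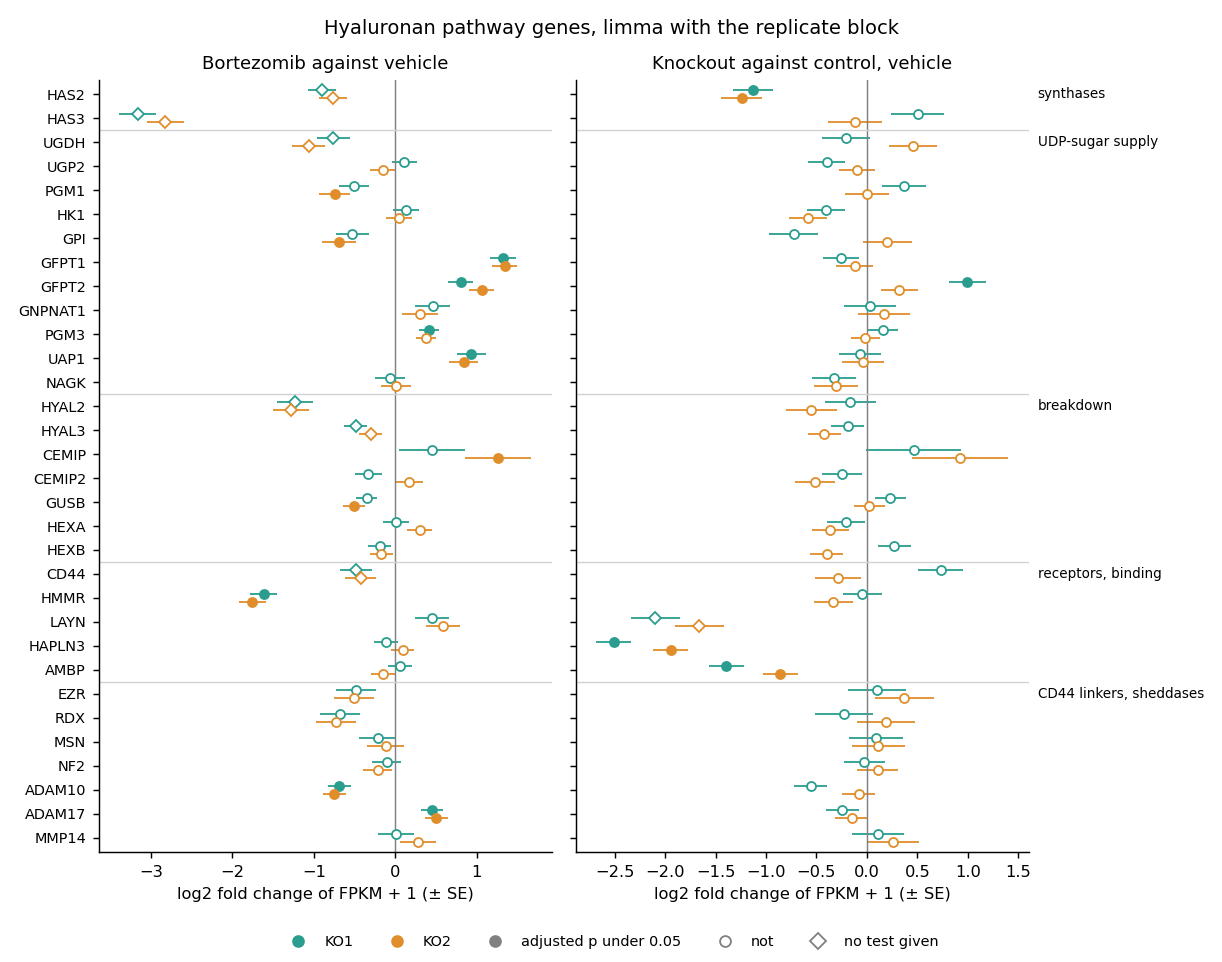
Log2 fold change of FPKM + 1 with its SE (x axis) for the 32 tested genes of the hyaluronan lists, from limma with the replicate block; left, bortezomib against vehicle, and right, knockout against control in vehicle, with KO1 in green and KO2 in orange, filled circles at adjusted p under 0.05, and diamonds where no test is given. HAS3 lies farthest left on the drug side (-3.16 and -2.83), GFPT1 farthest right, and HAPLN3 farthest left in the knockout comparison (-2.51 and -1.95).

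Between untreated lines, 1 of the 26 genes was higher and 3 were lower in KO1 with the block, where 3.1% and 2.85% of all genes were, and 0 were higher and 3 lower in KO2, against 2.67% and 2.25%. HAPLN3, a link protein that fixes hyaluronan to proteoglycans, was at 12.4 and 23.8 FPKM in control vehicle, 2.43 and 3.15 in KO1 and 4.16 and 5.04 in KO2. Its log2 difference was -2.51 in KO1 and -1.95 in KO2 (SE 0.17, limma adjusted p = 0.000123 and 0.000503 with the block, and 0.068 and 0.238 without it). LAYN, the hyaluronan receptor layilin, was at 2.02 and 4.35 in control vehicle, 0.115 and 0.0171 in KO1 and 0.340 and 0.545 in KO2. LAYN passed the filter through its level in the control line, since its mean was below 1 FPKM in KO1 under both treatments and in KO2 vehicle, so its counted calls follow in part from the filter and no test of it is given. No knockout library of these 2 genes overlapped the control libraries.

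AMBP, the precursor of bikunin, was lower by blocked log2 differences of -1.39 in KO1 (limma adjusted p = 0.00286, and 0.983 without the block) and -0.86 in KO2 (0.0257, and 1 without the block). Without control vehicle R2 the blocked call of AMBP (0.147 and 0.638) was lost in both lines and that of HAPLN3 in KO2 (0.0563). AMBP in KO2 was also lost without either KO2 vehicle (0.0868 and 0.248) or KO1 bortezomib library (0.0531 and 0.0524). GFPT2 was higher in KO1 vehicle (0.995, adjusted p = 0.0148 with the block and 0.989 without it), and this was lost without control vehicle R2 (0.286). LAYN is among the 3 lower genes in both lines.

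With bortezomib, the blocked fit called 3 of the 26 lower and 0 higher than the bortezomib-treated control libraries in each line, HAPLN3, AMBP and LAYN, where 3.92% of all genes were lower and 3.62% higher in KO1 and 2.3% and 2.51% in KO2. The blocked log2 difference of HAPLN3 was -2.25 in KO1 and -1.49 in KO2 (limma adjusted p = 0.000224 and 0.00283, and 0.116 and 0.745 without the block). That of AMBP was -1.06 and -0.74 (0.00895 and 0.048, and 1 without the block in both). The AMBP call in KO2 was lost in all 12 leave-outs (up to 0.268) and in KO1 without KO1 bortezomib R2 (0.116). In KO2, HAPLN3 was lost without control bortezomib R2 (0.0541). LAYN, again with no test, was at 3.53 to 3.94 FPKM in control cells with bortezomib, 0.337 to 0.573 in KO1 and 1.06 to 1.28 in KO2.

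The genes most like HAS3 over the 12 libraries, by Pearson's r of log2(FPKM + 1), were INTS3 (0.98), CCNF (0.98), ARHGEF39 (0.98), ELOVL6 (0.98) and AHNAK (0.98). For HAS2 they were ST6GAL2 (0.98), TMEM42 (0.95) and TMEM60 (0.94). For UGDH they were CDKN3, EHD2 and SKA2 (0.98 each), for CD44 ERAP1 (0.98), PIGN and CTSC (0.97 each), for HYAL2 MEN1 (0.99), PIGV and PIGX (0.98 each), and for HYAL3 OPN3 (0.96), SLC24A1 and SLC26A2 (0.95 each). Between members, r was 0.94 for HAS3 and HYAL2, 0.88 for HAS2 and HYAL3 and -0.43 for UGDH and CD44. These are descriptions over libraries that share treatments and the suffix difference, and the 2 last genes differ in the direction of that difference.

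Values of overlapping genes bear on what was counted. CHTF8, on the opposite strand, overlaps HAS3 by 710 bases and was at 63.1% to 77.7% of vehicle with bortezomib. The antisense gene HAS2-AS1 overlaps HAS2 and was at 0.325 to 0.842 FPKM, 51.7% to 107% of vehicle with the drug. Whether strand was used in counting is not given in the sources used here, and its part in these values was not tested.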

How the data were processed

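Per the labels' protocols, cDNA was primed with random hexamers. Submitters' processing notes name CASAVA, STAR 2.5, HTSeq 0.6.1 and build hg19 with no role, while the deposited positions are those of GRCh38: all 58676 IDs were in GENCODE release 29, 95.17% at the same position, the 6 members included. The annotation, strand setting and counting rules are not given in the sources used here. The authors deposited FPKM, which gave whole reads for 100% of values in every library (within 0.05 of a read), and those reads entered voom as an alternative.

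Tests used limma 3.58.1 in R 4.3.3 (eBayes with trend) on log2(FPKM + 1), with 12 libraries and 6 group means, over the 12194 genes with mean FPKM of at least 1. Fold changes on this scale understate the change of low genes. The drug response of the members, planned as a test in the knockout lines, is given as a description, since the choice of the set named no line. Genes were called at Benjamini-Hochberg adjusted p under 0.05. The suffix block had levels R1, R2 and unnumbered. Suffixes paired the libraries: R2 minus its partner correlated between groups (r 0.696 to 0.89 over 15 pairs). Python 3.11.15, pandas 2.3.3 and matplotlib 3.10.9 were used.

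Members and gene lists were chosen with earlier results of these data known. The text names the 6 members, NFE2L1, up to 3 called genes per list and comparison by size of change, and the 5 most similar profiles for HAS3 (3 for other members). RefSeq promoters matched 5 members, and that of HAS2 was not used. Alternatives were other pseudocounts, filters, scalings, blocks, voom, removal of mitochondrial genes and leaving out each library.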

Additional observations from a re-analysis of the deposited data

Results flagged for a closer look

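For 3 genes, both library pairs moved one way in KO1 and the opposite way in KO2 when each line was set against the control library of the same suffix (R1 against the unnumbered control). These differences between KO1 and KO2 were not tested, and both lines share the control libraries. In vehicle, UGDH was at 90.4% and 68.9% of the control line in KO1 and at 109.5% and 144.3% in KO2. With bortezomib, CD44 was at 167.2% and 162.9% in KO1 and at 87.9% and 80.7% in KO2. With bortezomib, HYAL2 was at 127.0% and 151.1% in KO1 and at 96.2% and 84.0% in KO2. None of these 6 comparisons with the control line passed in limma, with or without the block. Groups of 2 libraries are too small for a check of single outlying libraries.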

How the results depend on the processing

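The count of members called moved with the replicate block. With it by title suffix, and with it in every variant run (unnumbered libraries with R1, common sum, quantile normalization, voom), 5 members were called with bortezomib in KO1 and 4 in KO2, against 1 each without. With voom and with quantile normalization, both blocked, the 5 in KO1 held CD44 in place of HYAL3. Nothing is read from these drug counts, since the set was chosen on that response. In vehicle, KO1 against control gave 1 member with the suffix block and with common sum, and 2 with the unnumbered libraries on R1, with quantile normalization and with voom, and KO2 against control gave 1 in all 5. With bortezomib, KO1 against control gave 1 with the unnumbered libraries on R1, with common sum and with voom, and KO2 against control 1 with voom. That member was HAS3 in each case, and nothing is read from its p-values there. Without filtering the drug comparisons gave 0 in both lines, and a filter at 0.1 FPKM gave 0 in KO2, where more genes were tested. Leaving out 1 library, with and without the block, gave 0 to 6 members with bortezomib in KO1 and 0 to 4 in KO2, 0 to 1 for KO1 and for KO2 against control in vehicle, 0 to 1 for KO1 in bortezomib, and 0 for KO2. A lone library left in a group is assumed to vary like the other groups.

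Of 432 fits of single members under other settings, 11 turned direction, all of comparisons not called. A call was gained in 52 others and lost in 3. These include the drug comparisons, from whose calls nothing is read. For KO2 against control in vehicle HAS3 was 0.018 and turned to -0.12 with the block, -0.19 with common sum, -0.030 with quantile normalization and -0.28 with voom, each blocked, and CD44 turned to 0.011 with quantile normalization. For KO1 against control UGDH turned to 0.0071 in vehicle (quantile, blocked), and with bortezomib to 0.10 with the block, 0.032 with common sum, 0.17 with quantile normalization and 0.11 with voom, each blocked. HYAL2 turned to 0.068 in KO1 vehicle without mitochondrial genes. Leaving out 1 library turned further values, and the ranges pool the fits with and without the block. For KO1 in vehicle the log2 ranges were -0.013 to 1.34 for HAS3, -1.11 to 0.44 for UGDH and -0.65 to 0.58 for HYAL2. For KO2 in vehicle they were -0.64 to 0.72 for HAS3, -0.26 to 0.91 for UGDH, -0.82 to 0.63 for CD44 and -1.04 to 0.19 for HYAL2. For KO1 with bortezomib they were -0.56 to 0.14 for HAS2, -0.026 to 1.18 for HAS3, -0.76 to 0.70 for UGDH, -0.074 to 1.04 for CD44 and -0.45 to 0.62 for HYAL2. For KO2 with bortezomib they were -0.59 to 0.16 for HAS2, -0.31 to 0.84 for HAS3, -0.40 to 1.07 for UGDH, -1.03 to 0.085 for CD44 and -0.89 to 0.067 for HYAL2. The response of UGDH in KO1 ranged from -1.54 to 0.014 and that of GUSB in KO2 from -1.06 to 0.047. These 2 turned in fits without the block alone. With the block they ranged from -1.09 to -0.43 and from -0.54 to -0.48. The cause of these shifts was not tested. HAS2 and HYAL3, with 34 to 470 and 44 to 144 reads over the 12 libraries, carry wide counting error. HAS3 held 58 and 103 reads in the control bortezomib libraries, where HYAL3 held 61 and 92, so its counting error there is wide too.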
